A study of Mus musculus with 8 samples.

Results

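The genes described here are 9 genes of red blood cells: the embryonic globins Hbb-y, Hbb-bh1 and Hba-x, the adult globins Hba-a1, Hba-a2, Hbb-bt and Hbb-bs, and the erythroid genes Alas2 and Slc4a1. They were chosen by name from earlier results on their levels and genotype differences in these cortices, that is, selected on the CPM values described below, out of the 23420 genes counted at E11.5 and the 78298 genes counted at E12.5. Of the 9 genes, 8 were listed at E11.5 and 9 at E12.5. Differences of these genes between genotypes are therefore given as values with standard errors and without a p-value. RNA was measured in cortices from Mboat7+/- and Mboat7-/- embryos, 2 embryos for each genotype at E11.5 and 2 at E12.5, which gives 8 cortices. Mboat7 encodes the acyltransferase that attaches arachidonic acid to phosphatidylinositol. The deletion is a global one, carried also by blood cells, the mice were kept on C57BL/6N, and the controls carry 1 mutant allele. The E11.5 and E12.5 libraries came from different sequencing providers and were counted on different gene lists, so stage and provider cannot be told apart.

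In the mouse embryo, primitive red cells are made in the yolk sac and circulate from mid-gestation, and definitive red cells later enter the blood from the fetal liver. Primitive cells carry the embryonic globins, with Hbb-bh1 giving way to Hbb-y among the beta-like chains and Hba-x giving way to Hba-a1 and Hba-a2 among the alpha-like chains as the cells mature. Definitive cells carry the adult chains only. Blood in the vessels of a dissected cortex carries their RNA. In such bulk samples, fewer red cells and less RNA per red cell cannot be told apart.

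The total count per cortex lay between 20799311 and 28189771, and levels are given in CPM, the count divided by the TMM-normalised library size in units of 1000000 reads. The floor was set at 3 reads, which is 0.106 to 0.144 CPM depending on the cortex. The cortical marker Emx1 was counted in all 8 cortices, at no fewer than 1012 reads, and the liver marker Alb reached at most 4 reads. At E11.5 Mboat7 itself was counted 700 and 876 times in Mboat7+/- and 1103 and 860 times in the cortices labelled Mboat7-/-, and at E12.5 739 and 782 against 730 and 729 times. The sources used here do not say which part of the gene is deleted, so this count does not check the labels, and every direction below refers to the cortices labelled Mboat7-/-. Xist, which is transcribed from an inactive X chromosome, had 17875 counts in Mboat7+/- replicate 1 at E11.5 and 2 or fewer elsewhere. Alas2 lies on the X chromosome. The part of this difference in the values of Alas2 was not tested, and its value without that cortex is given below.

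The beta-like globin genes lie together on chromosome 7 and the alpha-like genes on chromosome 11. In the GENCODE annotation of GRCm38, Hbb-y (chr7:103851749-103853216), Hbb-bh1 (chr7:103841637-103843164), Hbb-bs (chr7:103826534-103828096) and Hbb-bt (chr7:103812524-103813996) are on the minus strand, and Hba-x (chr11:32276400-32278116), Hba-a1 (chr11:32283511-32284465) and Hba-a2 (chr11:32296489-32297298) on the plus strand, each with 3 exons. Alas2 (chrX:150547375-150570638) encodes the erythroid enzyme of the first step of heme synthesis. Slc4a1 (chr11:102348824-102366203) encodes band 3, the anion exchanger of the red cell membrane. The adult genes exist as near-identical pairs, so that a read from within a shared stretch matches both copies. The coding sequences of Hba-a1 and Hba-a2 differ at 1 of 429 bases, and those of Hbb-bs and Hbb-bt at 1 of 444. Hbb-y and Hbb-bh1 differ at 105 of 444 bases, with no identical run longer than 26. The coding stretch up to the difference is shown for each pair, at coding positions 322 to 381 for the alpha pair and 358 to 417 for the beta pair, with the differing base in capitals and all other bases shared.
Hba-a1: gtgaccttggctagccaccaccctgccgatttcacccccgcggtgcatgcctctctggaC
Hba-a2: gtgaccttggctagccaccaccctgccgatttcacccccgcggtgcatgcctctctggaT
Hbb-bs: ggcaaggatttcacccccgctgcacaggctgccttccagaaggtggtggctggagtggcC
Hbb-bt: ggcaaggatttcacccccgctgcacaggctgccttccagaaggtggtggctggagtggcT

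Upstream sequences were read for the 7 members with an entry in the RefSeq promoter set of GRCm38.p6, over the 190 bases from 200 to 11 bases before the transcription start. The letters GATAA, the core bound by GATA factors, were found on either strand in 5 of the 7 (Hbb-y, Hba-x, Hba-a1, Hba-a2 and Alas2) and in 17.5% of all 32851 promoters. CACCC, the core bound by Krüppel-like factors, was found in 7 of the 7 and in 43.8% of all promoters. CCAAT was found in 5 of the 7, all of them but Hba-x and Alas2, and in 28.5% of all promoters. TATAA was found in 5 of the 7, all of them but Hbb-y and Alas2, and in 18.1% of all promoters. These motifs do not contain one another, and a match is a description of the letters. The windows of Hba-a1 and Hba-a2 are the same sequence shifted by a few bases, so the 7 are not separate cases. For Hba-x all 190 bases lie inside its gene in the GENCODE annotation, as part of the window does for Hba-a1, Hbb-bt, Hbb-bs and Alas2. The windows of an embryonic beta-like gene (Hbb-y, chr7:103853218-103853407, minus strand) and an adult alpha-like gene (Hba-a2, chr11:32296292-32296481, plus strand) are shown with these motifs in capitals.
Hbb-y: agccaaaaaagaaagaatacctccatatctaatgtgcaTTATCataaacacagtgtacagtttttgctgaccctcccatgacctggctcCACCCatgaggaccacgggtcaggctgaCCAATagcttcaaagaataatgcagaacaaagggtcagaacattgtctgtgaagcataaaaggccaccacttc
Hba-a2: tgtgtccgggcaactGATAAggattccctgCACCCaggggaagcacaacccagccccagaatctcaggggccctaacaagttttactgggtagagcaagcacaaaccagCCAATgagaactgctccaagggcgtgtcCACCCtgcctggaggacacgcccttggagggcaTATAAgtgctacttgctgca

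At E11.5, the embryonic globins had the highest CPM of the 6 members with counts, and Hbb-y and Hba-x were lower in both cortices labelled Mboat7-/- than in both Mboat7+/- cortices. Hbb-y, the epsilon-like embryonic beta chain, was at 3326 and 2721 CPM in the Mboat7+/- cortices and at 1671 and 1919 CPM in the Mboat7-/- cortices. Its log2 fold change of Mboat7-/- over Mboat7+/- was -0.75 (standard error 0.10). The genotypes did not overlap. Hba-x, the zeta-like embryonic alpha chain, was at 2379 and 1629 CPM in Mboat7+/- and at 1115 and 1207 CPM in Mboat7-/-, which gave a log2 fold change of -0.79 (standard error 0.14). Hbb-bh1, the earliest beta-like chain of primitive cells, was at 962 and 676 CPM in Mboat7+/- and at 694 and 569 CPM in Mboat7-/-. Its genotypes overlapped, and its log2 fold change was -0.37 (standard error 0.15). Summed, the 3 embryonic globins took 6667 and 5026 CPM in Mboat7+/- and 3480 and 3695 CPM in Mboat7-/-.

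The adult globins could be followed at E11.5 only through Hbb-bs. Hba-a1 and Hba-a2 were listed at 0 in all 4 cortices, Hbb-bt was not listed, and the older entries Hbb-b1 and Hbb-b2 were listed at 0 as well. Hbb-bs stood under an older name, Beta-s, with 534 and 725 counts in Mboat7+/- and 176 and 357 in Mboat7-/-. Its coding sequence is near-identical to that of Hbb-bt, so it is uncertain how complete this count is. In CPM this was 24.6 and 27.4 against 6.22 and 14.4, a log2 fold change of -1.36 (standard error 0.29). The Mboat7-/- cortices lay below the Mboat7+/- cortices, and the 2 Mboat7-/- cortices differed from each other more than the 2 Mboat7+/- cortices did. With these entries at 0 or not listed, the embryonic share of all globin RNA was not computed at this stage.

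The other 2 members, which are not globins, showed the same order of genotypes at E11.5. Alas2 was at 66.0 and 51.6 CPM in Mboat7+/- and at 36.9 and 43.3 CPM in Mboat7-/-, which gave a log2 fold change of -0.55 (standard error 0.13). Without Mboat7+/- replicate 1, the cortex with Xist, it was -0.36. Slc4a1 was at 178 and 126 CPM in Mboat7+/- and at 103 and 116 CPM in Mboat7-/-, which gave a log2 fold change of -0.47 (standard error 0.14). Neither gene overlapped between genotypes.

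**Figure D1:**
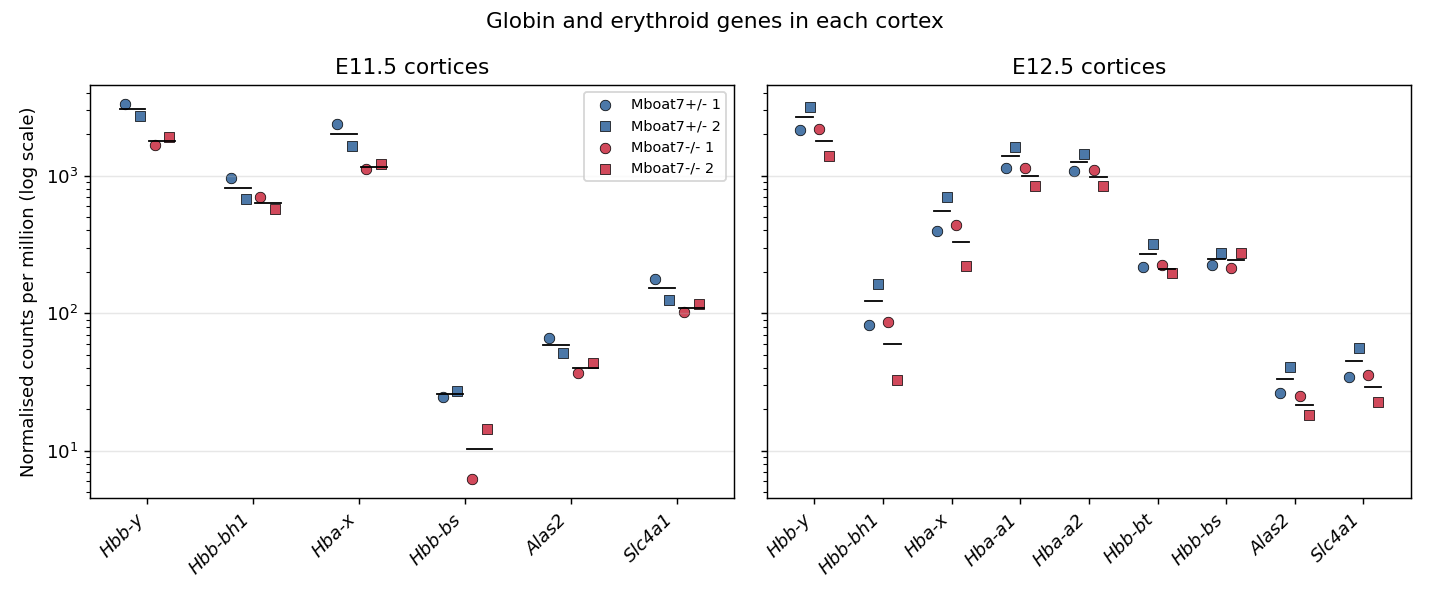
Normalised CPM of each gene on a log axis, for the 4 cortices of E11.5 (left) and of E12.5 (right). Blue points are Mboat7+/- and red points Mboat7-/-, circles are replicate 1 and squares replicate 2, and black lines are genotype means; genes listed at 0 or not listed at E11.5 are left out. At E11.5 Hbb-y, Hba-x, Hbb-bs, Alas2 and Slc4a1 do not overlap between genotypes, and at E12.5 the blue square is highest for all 9 genes and the red square lowest for 8.

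Of the 8 members listed at E11.5, 6 passed the filter on low counts. All 6 had a negative log2 fold change, with a median of -0.65, beside a median of -0.01 and 51.1% negative over the 14935 genes tested. In 5 of the 6 both Mboat7-/- cortices lay below both Mboat7+/- cortices, as did 23.3% of all genes tested. These counts follow from how the genes were chosen. Mboat7+/- replicate 1 was the highest cortex for 5 of the 6 genes and Mboat7-/- replicate 1 the lowest for 5 of the 6. Leaving out Mboat7+/- replicate 1 moved the median to -0.43, and leaving out each of the other cortices gave -0.59 to -0.80. Without Mboat7+/- replicate 1, the log2 fold change was -0.60 for Hbb-y, -0.49 for Hba-x, -0.10 for Hbb-bh1 and -0.20 for Slc4a1. That of Hbb-bs was -0.85 without Mboat7-/- replicate 1 and -2.06 without Mboat7-/- replicate 2. Over all left-out cortices, Hbb-y lay between -0.88 and -0.60, Hba-x between -1.03 and -0.49, Hbb-bh1 between -0.60 and -0.10, Alas2 between -0.71 and -0.36 and Slc4a1 between -0.70 and -0.20.

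At E12.5, the same genes were lower on average in the cortices labelled Mboat7-/-, but the spread within each genotype was wide. Hbb-y was at 2133 and 3149 CPM in Mboat7+/- and at 2170 and 1380 CPM in Mboat7-/-, which gave a log2 fold change of -0.57 (standard error 0.23). Mboat7+/- replicate 2 was high, Mboat7-/- replicate 2 was low, and the remaining pair of cortices, of opposite genotype, were nearly level. Hbb-bh1 was at 82.8 and 162 CPM against 86.5 and 32.7 CPM, a log2 fold change of -1.04 (standard error 0.37). Hba-x was at 399 and 702 CPM against 440 and 221 CPM, a log2 fold change of -0.74 (standard error 0.29). All 3 embryonic globins overlapped between genotypes, with the same pair of cortices at the extremes.

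The adult alpha chains, listed at 0 at E11.5, had many counts at E12.5. Hba-a1 was at 1141 and 1614 CPM in Mboat7+/- and at 1129 and 841 CPM in Mboat7-/-, which gave a log2 fold change of -0.48 (standard error 0.18). Hba-a2 was at 1078 and 1444 CPM against 1103 and 845 CPM, a log2 fold change of -0.37 (standard error 0.17). Because the pair shares nearly all of its coding sequence, the split between them is uncertain. Hba-a1 took 49.9% to 52.8% of the sum of the pair in the 4 cortices.

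The adult beta chains had the smallest log2 fold changes of the globins. Hbb-bt was at 217 and 318 CPM in Mboat7+/- and at 226 and 196 CPM in Mboat7-/-, which gave a log2 fold change of -0.34 (standard error 0.15). Hbb-bs was at 223 and 272 CPM against 214 and 272 CPM, a log2 fold change of -0.03 (standard error 0.13). Here Mboat7-/- replicate 2, the lowest cortex for the other 8 genes, was level with the highest cortex. The coding sequences of this pair also differ at 1 base, so their split is uncertain too. Hbb-bt and Hbb-bs shared 59.4% and 66.9% of the 31-base words of their transcripts with another gene, against 71.3% and 91.0% for Hba-a1 and Hba-a2.

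Alas2 was at 26.2 and 40.7 CPM in Mboat7+/- and at 25.2 and 18.1 CPM in Mboat7-/- at E12.5, a log2 fold change of -0.62 (standard error 0.20). Slc4a1 was at 34.5 and 55.9 CPM against 35.6 and 22.6 CPM, a log2 fold change of -0.64 (standard error 0.23). Alas2 did not overlap between genotypes, by less than 1 CPM, and Slc4a1 did.

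All 9 members passed the filter at E12.5, and all 9 log2 fold changes were negative, with a median of -0.57 beside a median of 0.00 and 48.8% negative over the 16326 genes tested. Only Alas2 and Hba-a1, 2 of the 9, did not overlap between genotypes, where 15.2% of all genes had both Mboat7-/- cortices below both Mboat7+/- cortices. The median was -0.25 without Mboat7+/- replicate 2, -0.29 without Mboat7-/- replicate 2, -0.83 without Mboat7+/- replicate 1 and -0.89 without Mboat7-/- replicate 1. With 1 cortex left out, single genes moved widely. Hbb-y lay between -0.94 and -0.27, Hba-x between -1.32 and -0.27, Hbb-bh1 between -1.91 and -0.47, Hba-a1 between -0.72 and -0.21 and Hba-a2 between -0.58 and -0.15. Hbb-bt lay between -0.59 and -0.04, Alas2 between -0.91 and -0.27 and Slc4a1 between -1.01 and -0.25, while Hbb-bs changed sign, between -0.21 and 0.13. For each of the 9 genes the value closest to 0 came from leaving out Mboat7+/- replicate 2, with a changed sign for Hbb-bs. Mboat7+/- replicate 2 was the highest cortex for 9 of the 9 genes and Mboat7-/- replicate 2 the lowest for 8.

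**Figure D2:**
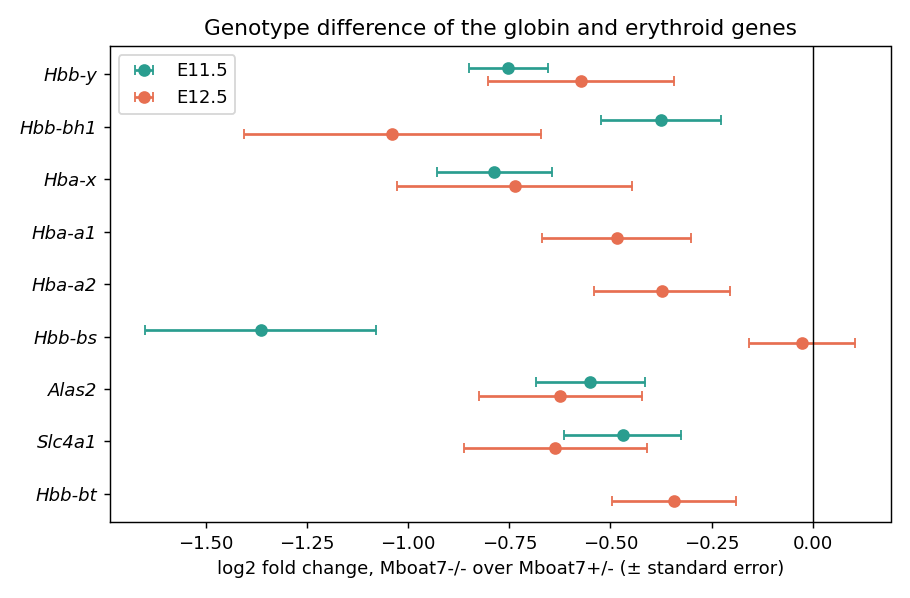
The log2 fold change of Mboat7-/- over Mboat7+/- cortices for each gene, with its standard error as a bar, at E11.5 (green) and E12.5 (orange). All points lie below 0, between -1.36 and -0.37 at E11.5 and between -1.04 and -0.03 at E12.5, and the bars are longer at E12.5 for the 3 embryonic globins.

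Compared per kilobase of coding sequence, Hbb-y was the highest of the 6 members with counts at E11.5 and of the 9 at E12.5, with means of 5426 and 4973 CPM per kilobase. Hba-a1, Hba-a2 and Hbb-bt, listed at 0 or not listed at E11.5, have no place in the order there, and the place of Hbb-bs is uncertain. At E11.5 it was followed by Hba-x (3360) and Hbb-bh1 (1633), and Slc4a1 (46.8), Hbb-bs (40.9) and Alas2 (28.04) were far lower. At E12.5 it was followed by Hba-a1 (2753) and Hba-a2 (2604), then Hba-x (935), Hbb-bs (553), Hbb-bt (539), Hbb-bh1 (205), Alas2 (15.6) and Slc4a1 (13.3). Neighbours such as Hba-a1 and Hba-a2, or Hbb-bs and Hbb-bt, were closer to each other than their spread over cortices.

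The globins can also be compared with one another within a cortex, which does not depend on the library size. Of the counts of all 7 globins at E12.5, the embryonic genes took 49.6% (95% Wilson interval 49.3 to 49.9) and 52.4% (52.1 to 52.6) in the Mboat7+/- cortices and 50.2% (49.95 to 50.5) and 43.1% (42.8 to 43.5) in the Mboat7-/- cortices. The intervals cover counting error only. The genotype means were 50.98% ± 1.98 and 46.7% ± 5.02 (SD, n = 2), a difference of -4.30 percentage points that was smaller than the spread of the Mboat7-/- cortices. Of the 4 cortices, 3 lay within 49.6% to 52.4%, and Mboat7-/- replicate 2 stood below them. Without that cortex the difference was -0.75 percentage points.

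The lower embryonic share of Mboat7-/- replicate 2 was present in both chains. Hba-x took 11.6% of its alpha-like counts, against 15.2% and 18.7% in the Mboat7+/- cortices and 16.5% in the other Mboat7-/- cortex. Hbb-y and Hbb-bh1 together took 75.1% of its beta-like counts, against 83.4%, 84.9% and 83.7%. Hbb-bs in this cortex had 197 counts per 1000 counts of Hbb-y, against 105 and 86.4 in Mboat7+/- and 98.8 in the other Mboat7-/- cortex. Its near-identical copy Hbb-bt differed less, with 5.18% of the globin counts in this cortex against 4.12% to 4.20% in the others. Hbb-bs took 58.1% of the counts of the pair here, against 50.7% and 46.1% in Mboat7+/- and 48.7% in the other Mboat7-/- cortex, and this split is uncertain.  The alpha-like to beta-like ratio of Mboat7-/- replicate 2 per coding length was 1.04, where the others had 1.01, 0.98 and 1.01. Hba-a1 and Hba-a2 took 22.2% and 22.3% of its globin counts, against 18.8% to 21.6% for the same genes in the others.

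**Figure D3:**
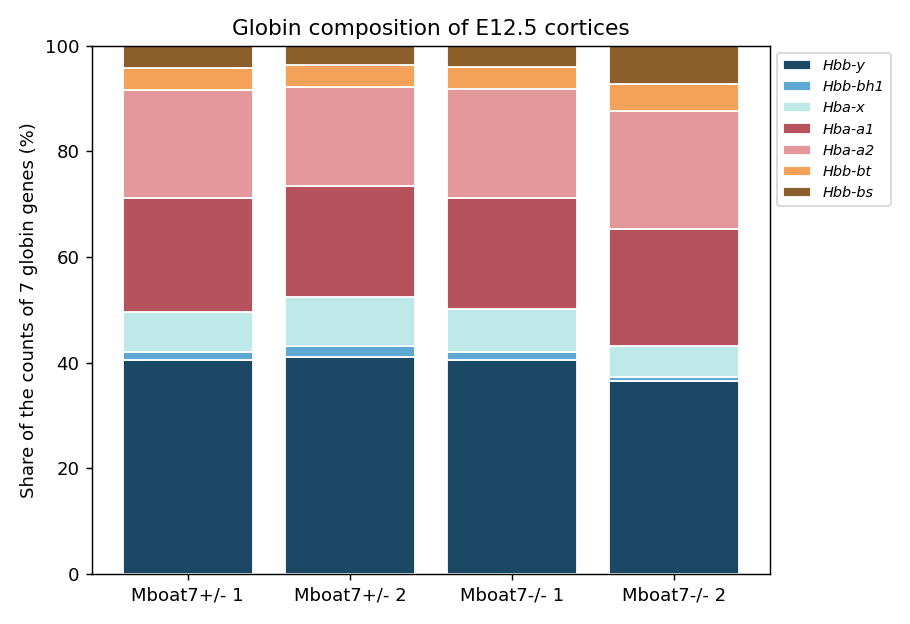
Stacked bars of the share of each globin gene in the counts of 7 globin genes (percent, from 0 to 100) in the 4 E12.5 cortices. The embryonic genes are in blue at the bottom and end at 49.6%, 52.4%, 50.2% and 43.1%, and Hbb-bs (brown, top) takes 7.18% in Mboat7-/- replicate 2 against 3.55% to 4.23% in the other cortices.

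Relative to Hbb-y, Alas2 and Slc4a1 varied little among the E12.5 cortices. At E12.5 Alas2 had 12.3 and 12.9 counts per 1000 counts of Hbb-y in Mboat7+/- and 11.6 and 13.1 in Mboat7-/-, although its CPM differed 2.24-fold between the highest and lowest cortex. Slc4a1 had 16.2 and 17.8 per 1000 against 16.4 and 16.4. At E11.5 Alas2 had 19.8 and 19.0 per 1000 in Mboat7+/- and 22.1 and 22.5 in Mboat7-/-, and Slc4a1 53.6 and 46.2 against 61.5 and 60.5. These ratios are of raw counts and compare cortices, not genes.

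Among the embryonic beta chains, Hbb-bh1 took 22.4% and 19.9% of the sum of Hbb-bh1 and Hbb-y in the Mboat7+/- cortices of E11.5 and 29.3% and 22.9% in the Mboat7-/- cortices. At E12.5 it took 3.74% and 4.90% in Mboat7+/- and 3.83% and 2.31% in Mboat7-/-. The Mboat7-/- share was above both Mboat7+/- values at E11.5, with the 2 Mboat7-/- cortices 6.47 percentage points apart, and the genotypes overlapped at E12.5. All 4 values of E11.5 lay above all 4 of E12.5, across libraries of different providers. The ratio of Hba-x to the embryonic beta chains per coding length was 0.52 and 0.45 in Mboat7+/- and 0.44 and 0.46 in Mboat7-/- at E11.5, and 0.17 and 0.20 against 0.18 and 0.15 at E12.5.

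The remaining genes of the erythroid program were read from a list of 43 genes that are not among the 9 members, of which 42 were listed at each stage. At E11.5, 39 of the 43 passed the filter and edgeR's quasi-likelihood test called 0 of them (FDR below 0.05 and a log2 fold change of 1 or more in size), as it called 0% of all genes. At an unadjusted p under 0.05, 17 of the 39 were lower and 1 was higher in Mboat7-/-, where 6.07% of all genes were lower and 8.03% higher. DESeq2 called 0 of the list as well, and gave 15 genes of the list and 1549 of all genes under an unadjusted p of 0.05. The median log2 fold change of the list was -0.31. Both Mboat7-/- cortices lay below both Mboat7+/- cortices in 24 of the 39 and above both in 1, where 23.3% and 23.1% of all genes did. Without Mboat7+/- replicate 1, the number of list genes under an unadjusted p of 0.05 fell most, to about the share over all genes. That fit rests on 1 Mboat7+/- cortex.

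By role, the 39 genes tested at E11.5 divided as follows, where 51.1% of all genes were negative and 6.07% were lower at an unadjusted p under 0.05. Of 11 genes of heme synthesis and mitochondrial transport, all 11 had a negative log2 fold change and 5 were under an unadjusted p of 0.05. Of 10 genes of the membrane and its skeleton, all 10 were negative and 4 were under that p, and of 7 transcription factors 6 were negative and 3 were under it. Of 4 genes of receptors and iron uptake, 2 were negative, and Tfrc, the transferrin receptor, was the gene under that p with a positive value. Of 6 other red cell genes 5 were negative and 5 were under it, and the 1 other globin tested, Hbq1b, was positive. The 3 genes with the smallest p were Prdx2, Bpgm and Fech.

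Prdx2, an abundant peroxidase of red cells, was at 797 and 831 CPM in Mboat7+/- and at 648 and 705 CPM in Mboat7-/- at E11.5, a log2 fold change of -0.27 (standard error 0.06, edgeR adjusted p = 0.174). Bpgm, the enzyme that makes 2,3-bisphosphoglycerate, was at 100.1 and 98.0 CPM against 66.3 and 81.5 CPM, a log2 fold change of -0.42 (standard error 0.10, edgeR adjusted p = 0.180). Fech, whose enzyme makes heme by inserting iron into protoporphyrin, was at 55.3 and 48.2 CPM against 40.9 and 39.6 CPM. The log2 fold change of Fech was -0.36 (standard error 0.10, edgeR adjusted p = 0.210). None of these differences passed the threshold after adjustment over all genes.

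At E12.5, 38 of the 43 passed the filter and 0 were called by edgeR or by DESeq2, where 0.0184% of all genes were called by edgeR. At an unadjusted p under 0.05, 8 of the 38 were lower and 0 higher in Mboat7-/-, where 1.38% of all genes were lower and 2.85% higher. DESeq2 gave 4 genes of the list and 308 of all genes under that p. The median log2 fold change was -0.26, and 34 of the 38 were negative. Over all genes tested, 48.8% were negative. Both Mboat7-/- cortices lay below both Mboat7+/- cortices in 15 of the 38 and above both in 1, where 15.2% and 16.9% of all genes did. The number under an unadjusted p of 0.05 was lower without Mboat7+/- replicate 2 or without Mboat7-/- replicate 2. It was higher without either of the replicates numbered 1, and the number over all genes moved the same way in each case. Each of these fits rests on 1 cortex for a genotype.

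The smallest p at E12.5 belonged to Slc25a37, Rhag and Sptb. Slc25a37, or mitoferrin, which carries iron into mitochondria, was at 29.4 and 36.8 CPM in Mboat7+/- and at 25.0 and 21.4 CPM in Mboat7-/-, which gave a log2 fold change of -0.51 (standard error 0.14, edgeR adjusted p = 0.954). Rhag, a membrane glycoprotein of the Rh complex, had 33 and 41 counts against 19 and 10, a log2 fold change of -1.45 (standard error 0.42, edgeR adjusted p = 0.954). Sptb, the beta spectrin of the membrane skeleton, was at 9.41 and 11.4 CPM against 7.50 and 7.24 CPM, a log2 fold change of -0.50 (standard error 0.18, edgeR adjusted p = 0.954). None of the 3 overlapped between genotypes, and none passed the threshold.

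**Figure D4:**
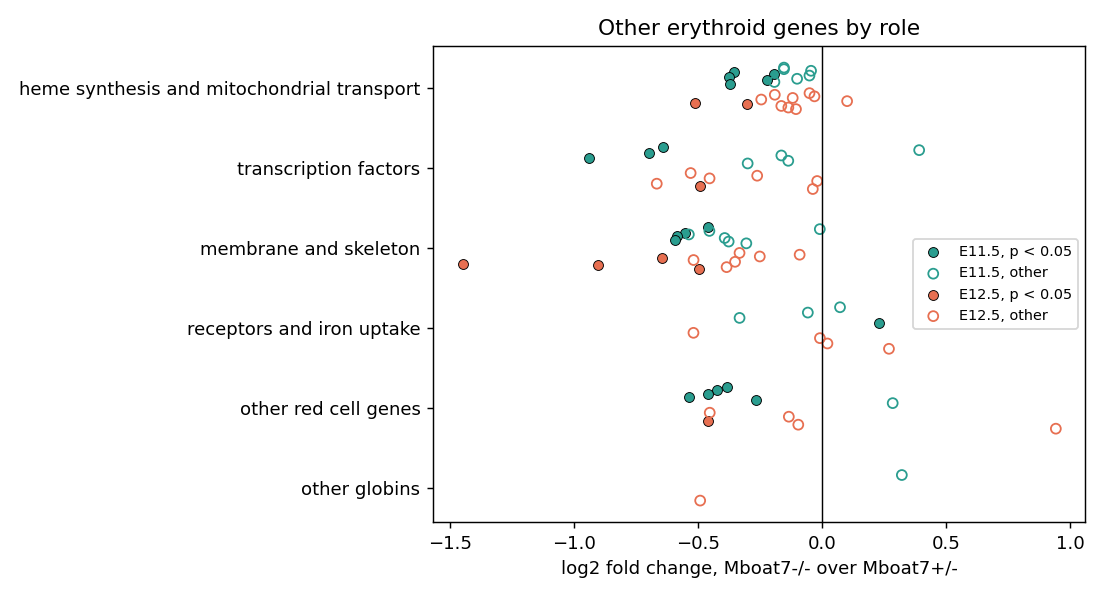
The log2 fold change of Mboat7-/- over Mboat7+/- for each tested gene of the erythroid list, in rows by role, at E11.5 (green) and E12.5 (orange). Filled points have an unadjusted p under 0.05 in edgeR, 17 lower and 1 higher at E11.5 and 8 lower at E12.5, and no gene passed the adjusted threshold.

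Whether the genotype difference changed between stages was tested with an interaction term over all 8 cortices. Of the 43 erythroid genes 40 were tested, and edgeR called 0, with 0 under an unadjusted p of 0.05, where 5.45% of all genes were under it. The interaction term was negative for 17 of the 40, and it was positive for 50.6% of all genes. DESeq2 called 0, with 0 under that p.

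Beside the red cell genes, the markers of other cell types were summed in each cortex. The 10 mesenchyme and meninges markers, all counted, took 1733 and 1694 CPM in Mboat7+/- and 1998 and 2138 CPM in Mboat7-/- at E11.5. The 10 endothelial markers took 361 and 346 CPM against 393 and 377 CPM, and the 5 pericyte markers 102 and 84.2 CPM against 113 and 95.7 CPM. The 5 megakaryocyte and platelet markers took 40.2 and 28.1 CPM against 29.9 and 28.3 CPM, and the 10 markers of macrophages and microglia 65.5 and 56.0 CPM against 64.0 and 65.7 CPM. The 10 cortical progenitor and neuron markers took 3271 and 3494 CPM against 2593 and 3355 CPM. Gene by gene, 9 of these 10 had a negative log2 fold change, where 51.1% of all genes did. Their median was -0.30, beside -0.31 for the erythroid list. In edgeR 4 of the 10 were lower and 0 higher at an unadjusted p under 0.05, where 6.07% of all genes were lower. At E12.5, 4 of the 10 were negative, with a median of 0.03. At E11.5 the endothelial and mesenchyme sums were thus higher in Mboat7-/-, while the globins and most of the cortical markers were lower. The part of these differences in the globin values was not tested.

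At E12.5 the 10 endothelial markers took 296 and 287 CPM in Mboat7+/- and 300.0 and 315 CPM in Mboat7-/-, the 5 pericyte markers 89.6 and 75.8 CPM against 89.5 and 123 CPM, the 10 mesenchyme and meninges markers 712 and 552 CPM against 689 and 739 CPM, and the 10 cortical markers 3512 and 3686 CPM against 3451 and 3356 CPM. The macrophage sum was 48.7 and 40.9 CPM against 49.6 and 57.2 CPM and the platelet sum 27.6 and 26.8 CPM against 30.3 and 23.0 CPM. The 5 liver markers took 149 and 133 CPM against 111 and 267 CPM, nearly all of it Ttr, which choroid plexus also makes, at 134 and 120 CPM against 96.3 and 253 CPM. The defining liver markers Alb and Afp had at most 4 and 8 counts. Mboat7-/- replicate 2, with the lowest embryonic globins, thus had the highest pericyte, macrophage, mesenchyme, endothelial and Ttr levels of the 4 cortices, and Mboat7+/- replicate 2, with the highest globins, had the lowest endothelial, pericyte, macrophage and mesenchyme sums. The part of these differences in the globin values was not tested.

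The non-member genes whose pattern over cortices was most like that of the embryonic globins came from outside the erythroid list. Likeness was the Pearson correlation of log2(CPM + 0.5), centred on each stage, with the summed embryonic globins over the 8 cortices, among 12647 genes with a mean of at least 1 CPM at both stages. The 10 non-member genes with the highest correlation were Psmd3, a proteasome subunit (r = 0.989), Nrtn (0.988), Pmf1 (0.987), Prim2 (0.986), Eif3k (0.986), Plekhb1 (0.985), Sf1 (0.984), Gltp (0.984), Gas2l1 (0.983) and Cdk1 (0.981), and 0 of them were on the erythroid list. With 8 points such values are a description, and all points share the libraries and their normalisation. The size of the movement differed, since Psmd3 moved by 0.19 and Sf1 by 0.15 on the log2 scale for each unit of the globins, against 0.93 for Plekhb1. Among the members that are not in the sum, Alas2 had r = 0.984 and moved by 0.85, Slc4a1 had r = 0.976 and moved by 0.89, and Hbb-bs had r = 0.494 and moved by 0.69. On the erythroid list, Alad of heme synthesis (r = 0.979) and Car2, carbonic anhydrase (r = 0.978), were among the most alike, and Tfrc had the lowest value (r = -0.566).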

How the data were processed

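Poly(A) RNA of 8 cortices was sequenced from directional libraries. The authors deposited raw read counts per gene, 1 table per stage. Their processing notes name HISAT2, Subread, mm10 and GRCm39 without saying which build belongs to which table. Identifiers and older symbols were matched through GENCODE and RefSeq tables of GRCm38, and coordinates are of that build. The 4 cortices of a stage were compared with edgeR 4.0.16 (R 4.3.3; TMM, filterByExpr with a minimum count of 10, glmQLFit, glmQLFTest, Benjamini-Hochberg adjustment), and a joint fit tested the interaction. A call needed an FDR below 0.05 and a log2 fold change of 1 or more in size. Alternatives were RLE and upper-quartile normalisation, DESeq2 1.42.0, no filter, library sizes without globins, a replicate block and leaving out each cortex.

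Members and lists were chosen with earlier results of these data known. The genes named are the members, the 3 other erythroid genes with the smallest p at each stage, the other globins and the 10 genes most like the embryonic globins, and other names were picked with their values in view. The replicate number is also the batch number in the labels. The main fits held no term for it, and same-numbered cortices were paired only in the replicate block. Cortices of the same number deviated from their genotype means with a correlation of 0.08 (E11.5) and -0.20 (E12.5) across genes. Replicates differed beyond sampling noise (chi-square per degree of freedom 8.35 to 14.3) and were counted separately; p-values measure the spread between these 2 embryos per group. In simulated counts, 168 of 200 changed genes were found at E11.5 among 14935 genes and 161 of 200 at E12.5 among 16326.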

Additional observations from a re-analysis of the deposited data

How the results depend on the processing

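Of the values of single members under each alternative, 60 of 60 at E11.5 and 88 of 90 at E12.5 kept their direction. The exceptions were Hbb-bs at E12.5, whose log2 fold change was 0.12 without Mboat7+/- replicate 2 and 0.13 without Mboat7-/- replicate 1. The count of erythroid genes called was 0 under every alternative at both stages and for the interaction. With 1 cortex left out, the median of the members lay between -0.80 and -0.43 at E11.5 and between -0.89 and -0.25 at E12.5, and the difference in the embryonic share at E12.5 from -7.85 to -0.75 percentage points. That difference was -4.25 per coding length, -2.93 for alpha-like and -4.75 for beta-like genes. At E11.5 the share could not be computed, since Hba-a1 and Hba-a2 were listed at 0, so its alternatives were not run.

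Counts over all genes moved more. At E11.5 edgeR called 0 genes, DESeq2 2, the replicate block 40, and leaving out 1 cortex 1 to 168. At E12.5 the count was 3, against 5 with DESeq2, 0 without a filter, 21 with the replicate block and 24 to 105 with 1 cortex left out. For the interaction it was 0, against 7 with DESeq2 and 0 to 44 with 1 cortex left out. The cause of these changes was not tested. The replicate block, which pairs same-numbered cortices, changed no call among the erythroid genes, and the median of the members was -0.65 and -0.58 under it. Where a lone cortex stood for a genotype, it was assumed to vary like the others.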

Other observations

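The listing of the adult alpha globins at 0 in the E11.5 cortices was set beside other genes with near-identical copies. Among protein-coding genes listed at both stages, 459 shared at least 90% of the 31-base words of their longest coding transcript with another gene, Hba-a2 among them (91.0%), and 362 of these were at 0 in all E11.5 cortices against 312 in all E12.5 cortices. Of the 57 of them with a mean count of at least 100 at E12.5, 14 were at 0 in all E11.5 cortices, among them Amd1, with up to 4076 counts at E12.5. Hba-a1 shared 71.3%, and of 137 genes that shared 50% to 90% and reached that mean, 5 were at 0 at E11.5. Of 7398 genes that shared none and reached it, 7 were at 0. The counting settings behind each table are not given in the sources used here.

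Of the remaining globin genes, Hbb-bh2 and Hbq1a had at most 9 counts in any cortex. Hbb-bh2 had 4, 8, 9 and 3 counts in the E11.5 cortices (Mboat7+/- then Mboat7-/-) and at most 1 at E12.5. Hbq1a had 0, 4, 0 and 9 at E11.5 and 2 to 4 at E12.5. Hbq1b, a theta-like alpha gene, had 37, 35, 37 and 62 counts at E11.5 and 5, 16, 14 and 2 at E12.5, with log2 fold changes of 0.32 (standard error 0.46) and -0.49 (standard error 0.78). Ahsp, which encodes the alpha chain chaperone, is on the erythroid list but was not found under that name at either stage.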
